A study of Mus musculus with 16 samples.

Results

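Ribosomal protein genes encode the protein parts of the cytosolic ribosome, and 65 of them could be followed here among 22179 genes with a single-gene probe set on the mouse array. A probe set entered when it named 1 gene only and the symbol was that of a large (Rpl) or small (Rps) subunit protein, of the stalk proteins Rplp0, Rplp1 and Rplp2 or of Rpsa, with pseudogenes and the Rps6k kinases left out. Where a gene had several probe sets, the brightest was taken. The 65 genes comprised 41 of the large and 24 of the small subunit. They held 58 of the 79 canonical mouse ribosomal protein genes and 7 paralogs or relatives (Rpl3l, Rpl7l1, Rpl10l, Rpl22l1, Rpl32l, Rpl39l and Rps27l).

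Total RNA came from 16 subcutaneous xenografts of LA-N-1, a human neuroblastoma cell line with MYCN amplification, in female athymic Nude-Foxn1 nu/nu mice, which lack T cells and had been inoculated at 4 to 6 weeks of age. In 8 of them the mouse had received cinacalcet, an allosteric activator of the calcium-sensing receptor, at 10 mg/kg per day by oral gavage, and in 8 it had received vehicle. Gavage was on 6 days per week, or daily as the sample labels have it. Tumors were taken at 2 cm3, so time on treatment was not assigned, and each group is represented by the tumors that were excised latest. All tumors were of 1 cell line. The Mouse Gene 2.1 ST array has probes for mouse transcripts, which in these tumors belong to host vessels, fibroblasts and immune cells. Whether human ribosomal protein transcripts, which are very similar to those of the mouse, also bound these probes was not tested, as no array of human cells alone was at hand. Cinacalcet tumor 6, an outlier on quality control of the arrays in the original work, was left out. The comparisons below hold 7 cinacalcet and 8 vehicle tumors. Signals are log2 values after Robust Multi-array Average (RMA) normalization. Array medians were between 1.58 and 1.76 in cinacalcet tumors and between 1.59 and 1.85 in vehicle tumors.

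Each ribosome joins a small subunit, which reads the mRNA, to a large subunit, which forms the peptide bond, and most ribosomal proteins are present in a single copy per ribosome. Their mRNAs are abundant in nearly all cells. In vertebrates they start with a run of pyrimidines, the TOP motif, through which mTOR signaling controls their translation. The host cell genes set beside them were Cdh5, which encodes VE-cadherin of endothelial junctions, Cd68, a lysosomal glycoprotein of macrophages, and Col1a1, a chain of fibrillar collagen made mostly by fibroblasts.

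The brightest probe set was used for each gene, so the level of the 65 genes is set beside that of the brightest probe set of all 22179 genes, as a description. The median signal of ribosomal protein genes was 5.17 in cinacalcet tumors and 5.00 in vehicle tumors, where all genes had 1.95 in cinacalcet tumors and 1.99 in vehicle tumors. Olfactory receptor genes, which these tissues should not use, served as background. The 95th percentile of their 1108 probe sets was 2.01, and 51 of the 65 genes had a mean above it, that is 78.5% against 48.8% of all genes. Among genes with 1 probe set, where no choice was made, the shares were 65.9% of 41 ribosomal protein genes and 47.6% of 21107 genes. A mean over 5 was reached by 33 genes. Signals of different probe sets depend on their probes as well as on RNA amount, so this order is one of signals and not of transcripts.

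**Figure D1:**
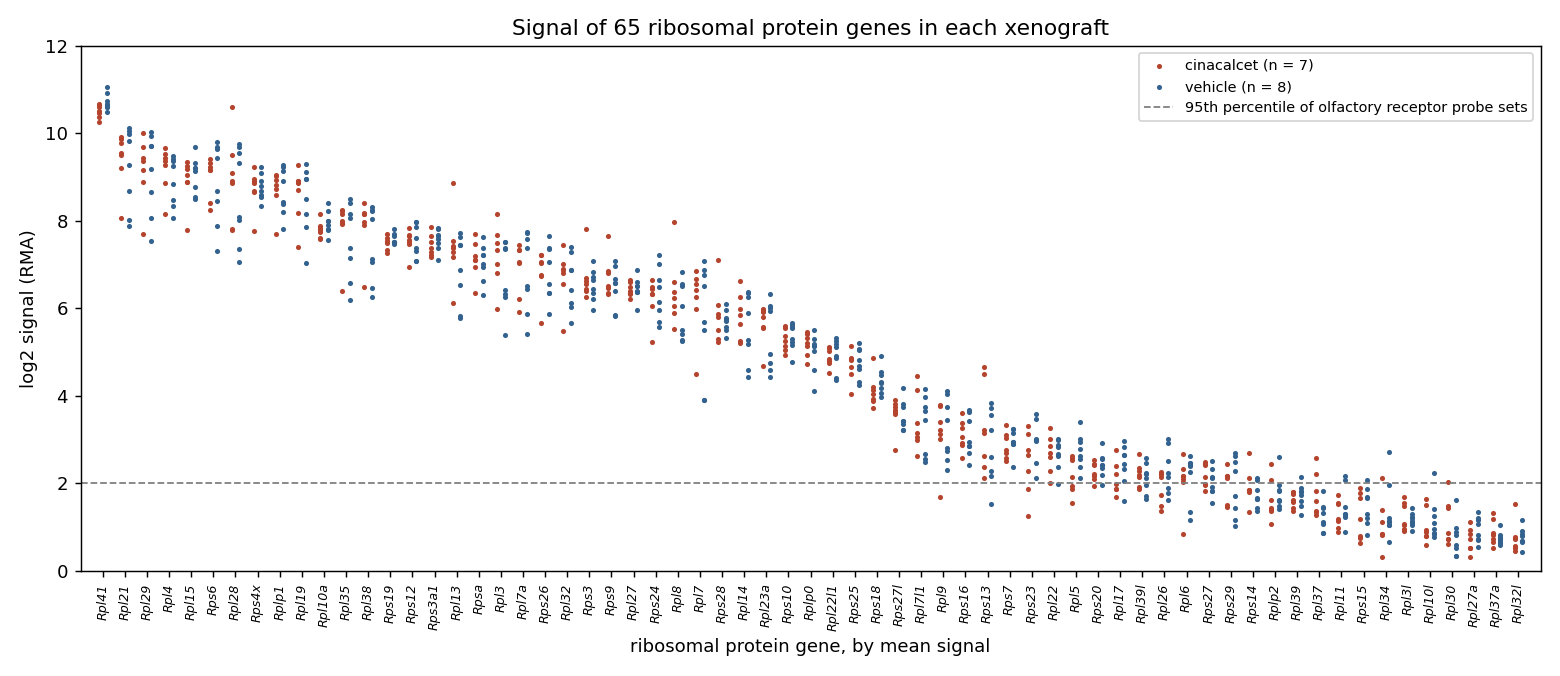
Log2 signal (y axis) of each ribosomal protein gene (x axis, by falling mean) in each xenograft, with cinacalcet tumors (n = 7) in red to the left of vehicle tumors (n = 8) in blue. The dashed line is the 95th percentile of olfactory receptor probe sets, 2.01, and the groups overlapped for all 65 genes (0.0469% of all probe sets did not overlap).

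The brightest gene was Rpl41, which encodes a very short basic peptide of the large subunit. Its lowest, median and highest signals were 10.3, 10.5 and 10.7 in cinacalcet tumors and 10.5, 10.7 and 11.1 in vehicle tumors. Rpl21, Rpl29, Rpl4 and Rpl15, all of the large subunit, came next with means over all 15 tumors of 9.32, 9.14, 9.04 and 8.99. Of these neighbors, Rpl21 and Rpl29 differed by less than the SD of either between tumors (0.81 and 0.85). Rps6, the small subunit protein phosphorylated by S6 kinases downstream of mTOR, was the brightest small subunit gene. It had 8.24, 9.17 and 9.42 in cinacalcet tumors (lowest, median, highest) and 7.30, 9.05 and 9.80 in vehicle tumors. Tumors with low Rps6 were found in both groups.

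The stalk of the large subunit, which recruits translation factors, was unevenly bright in these probe sets. Rplp1 averaged 8.69 ± 0.47 in cinacalcet tumors and 8.67 ± 0.54 in vehicle tumors (SD, n = 7 and 8). Rplp0, which anchors the stalk, averaged 5.17 ± 0.27 in cinacalcet and 5.00 ± 0.45 in vehicle tumors. The probe set of Rplp2 lay below background in both groups, at 1.62 ± 0.48 in cinacalcet tumors and 1.79 ± 0.38 in vehicle tumors, but a probe set that names Rplp2 together with other genes averaged 5.24. Rpsa, a small subunit protein also known as a laminin receptor, averaged 7.12 ± 0.43 in cinacalcet tumors and 7.04 ± 0.42 in vehicle tumors. Rpl5 and Rpl11, which carry 5S ribosomal RNA into the large subunit, were dim. Rpl11, at 1.29 ± 0.32 in cinacalcet and 1.46 ± 0.44 in vehicle tumors, was not above background.

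The dimmest single-gene probe sets of the 65 were those of Rpl32l, Rpl37a, Rpl27a, Rpl30 and Rpl10l, with means over all tumors between 0.76 and 1.10. Of the paralogs, Rpl10l, known from the testis, and Rpl3l, known from striated muscle, were not above background. Rpl10l averaged 1.02 in cinacalcet and 1.17 in vehicle tumors, and Rpl3l 1.24 in cinacalcet and 1.17 in vehicle tumors. Rpl39l, another gene known from the testis, lay close to background at 2.20 in cinacalcet and 2.12 in vehicle tumors. The germ cell markers Dazl, Ddx4, Prm1 and Tnp1 were all below background. Rpl22l1, the paralog of Rpl22, was the brightest of this group at 4.88 ± 0.22 in cinacalcet and 4.93 ± 0.37 in vehicle tumors. Rps27l, the paralog of Rps27, averaged 3.58 in cinacalcet and 3.55 in vehicle tumors, and Rpl7l1 averaged 3.40 in cinacalcet and 3.34 in vehicle tumors.

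A dim probe set need not mean a dim gene. Probe sets that name several genes were not used. Among the 58 canonical genes 20 had one, which was brighter than the gene's own in 12. The 7 paralogs or relatives were not part of this count. For Rpl37a it averaged 10.03, for Rpl34 9.95, for Rpl30 8.19 and for Rpl27a 7.97, where their own probe sets were below background. This was so for 6 canonical genes among the 14 genes not above background, which include paralogs that were not searched. Of the 65 genes 24 had several probe sets, and the brightest exceeded the dimmest by between 0.58 and 7.48 log2 units, with a gap over 3 in 18 genes. In Rpl29 the probe sets averaged 9.14 and 1.66. The 3 probe sets of Rps12 differed least, with means between 6.94 and 7.53. Rpl41 had 5, with means of 10.6, 10.4, 8.08, 7.95 and 4.56. Their SDs within groups ran between 0.17 and 0.84, so probe sets of 1 gene differed in spread as well as in signal.

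Cinacalcet and vehicle tumors were then compared gene by gene with limma over all 40543 probe sets. No ribosomal protein gene passed an adjusted p of 0.05, as was true of 0% of all probe sets, and the smallest adjusted p among the 65 was 0.909. At an unadjusted p under 0.05, 1 gene was higher in cinacalcet tumors, against 2.07% of all probe sets, and 1 was lower, against 3.03%. These shares of the 65, 1.54% each, lay below those of all probe sets. The log2 fold change was positive for 35 genes and negative for 30, between -0.54 and 0.49. Its median was 0.034, against -0.021 over all probe sets. Among the 33 genes of mean signal over 5 the median was 0.13, as it was among all 2411 probe sets of that signal. For none of the 65 genes were the groups free of overlap, against 0.0469% of all probe sets.

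**Figure D2:**
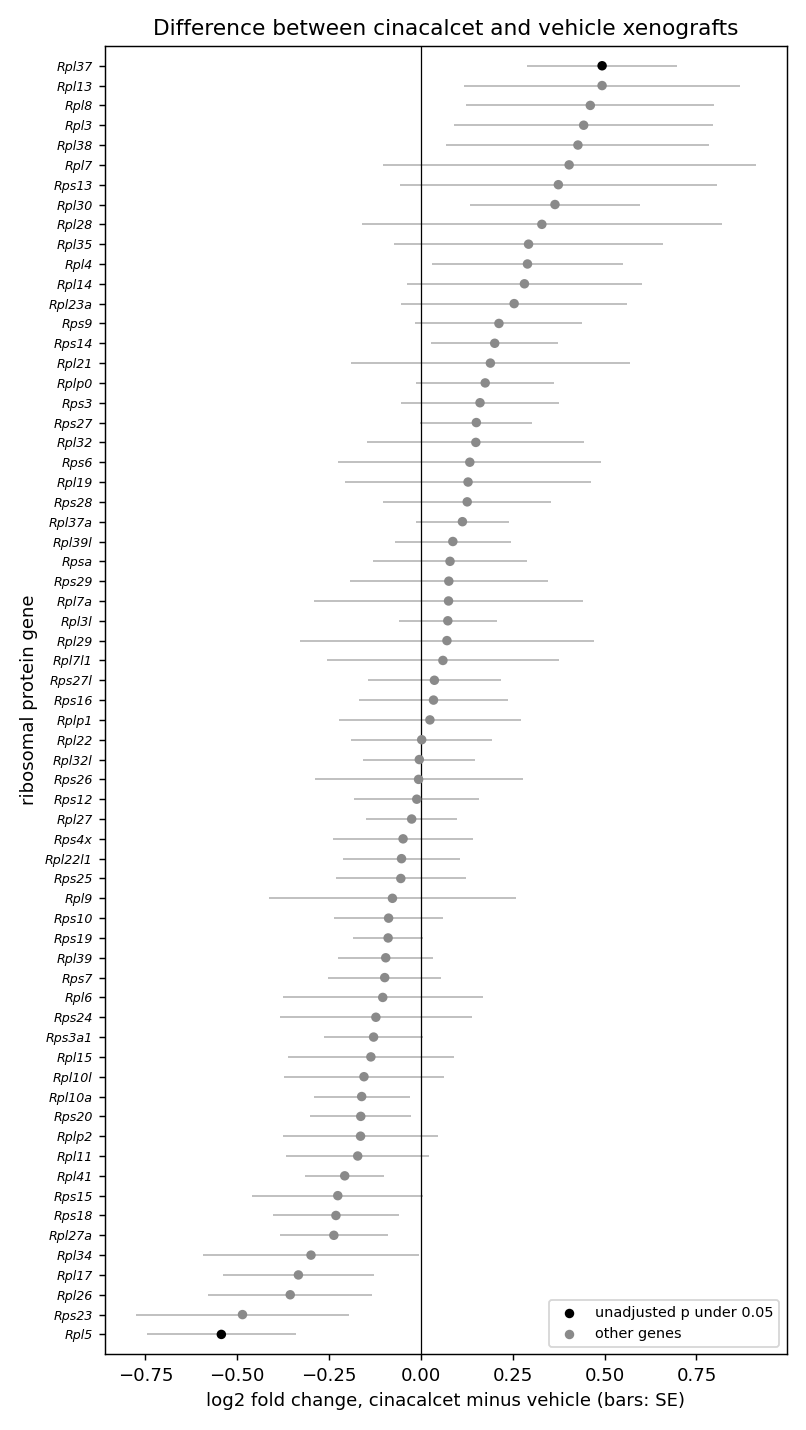
Log2 fold change of cinacalcet over vehicle tumors (x axis) for each of 65 ribosomal protein genes (y axis), with the standard error from limma as a bar. The black points are Rpl37 and Rpl5, the 2 genes of unadjusted p under 0.05, and no gene had an adjusted p under 0.05.

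Of the 65, the gene of smallest unadjusted p was Rpl5. It had 1.54, 2.15 and 2.63 in cinacalcet tumors (lowest, median, highest) and 2.11, 2.69 and 3.39 in vehicle tumors. The ranges overlapped, and the log2 fold change was -0.54 ± 0.20 (SE, limma adjusted p = 0.909). Rpl37, of the large subunit, had 1.28, 1.59 and 2.57 in cinacalcet tumors and 0.86, 1.22 and 1.82 in vehicle tumors. Its log2 fold change was 0.49 ± 0.21 (SE, limma adjusted p = 0.909), with a mean in cinacalcet tumors of 1.74 that did not exceed background. The other genes of smallest p with higher means in cinacalcet tumors were Rpl30, Rpl8, Rpl13 and Rpl3, with log2 fold changes between 0.37 and 0.49. Those with lower means were Rpl41, Rps23, Rpl17 and Rpl27a, with log2 fold changes between -0.49 and -0.21. Of these 8 genes none had a limma p under 0.05. Single tumors moved several of them. The log2 fold change was 0.20 for Rpl8 and 0.25 for Rpl13 without cinacalcet tumor 10, 0.25 for Rpl3 without vehicle tumor 5, 0.21 for Rpl30 without cinacalcet tumor 11, and -0.28 for Rps23 without cinacalcet tumor 9. Rps4l, which carries a ribosomal protein symbol but is annotated as a pseudogene and was therefore not counted, had a smaller unadjusted p than any of the 65. It averaged 3.16 in cinacalcet tumors and 3.73 in vehicle tumors (log2 fold change -0.56, limma adjusted p = 0.909, the same as for Rpl5 since the adjustment gives neighboring genes 1 value).

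No gene that builds the ribosome or controls its mRNAs passed the adjusted threshold among those listed. The shares of all probe sets at an unadjusted p under 0.05 given above, 2.07% higher and 3.03% lower, apply to these lists too. Of 35 measured genes of ribosome biogenesis, at an unadjusted p under 0.05 only Gnl2, a nucleolar GTPase needed for the large subunit, was lower, with 4.29 in cinacalcet and 4.65 in vehicle tumors. Of 19 translation factors and other genes with TOP mRNAs none reached an unadjusted p under 0.05. Eif4b, which assists the helicase of the initiation complex, came closest with 7.26 in cinacalcet and 6.95 in vehicle tumors. Of 15 genes of mTOR signaling 2 were higher at an unadjusted p under 0.05. They were Tsc2, a brake on mTOR complex 1, with 4.22 in cinacalcet and 3.86 in vehicle tumors, and Rictor, a subunit of mTOR complex 2, with 4.35 in cinacalcet and 3.83 in vehicle tumors. Median log2 fold changes were 0.033 for ribosome biogenesis, 0.14 for translation factors and 0.049 for mTOR signaling.

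For the 3 host cell genes the groups overlapped as well. Cdh5 had 6.75, 7.92 and 8.49 in cinacalcet tumors (lowest, median, highest) and 6.55, 7.61 and 8.32 in vehicle tumors. Cd68 had 5.99, 7.08 and 8.11 in cinacalcet tumors and 4.84, 6.91 and 7.90 in vehicle tumors. Col1a1 had 7.44, 9.25 and 10.02 in cinacalcet tumors and 6.56, 9.28 and 10.15 in vehicle tumors. Differences in means, cinacalcet minus vehicle, were 0.20 for Cdh5, 0.25 for Cd68 and 0.15 for Col1a1, with two-sided exact permutation p of 0.55, 0.63 and 0.78 over 6435 arrangements (0.78 for each after Benjamini-Hochberg adjustment over the 3 genes). The limits of these tumors as a readout apply to host genes and ribosomal protein genes alike, since fewer host cells and less RNA per host cell cannot be told apart in bulk RNA.

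Spread between tumors differed widely from one ribosomal protein gene to the next. The SD within groups, pooled over both, ran between 0.14 for Rps19 and 1.08 for Rpl7, with a median of 0.44. Median SDs were 0.46 in cinacalcet tumors and 0.44 in vehicle tumors. All probe sets had a lower median SD, 0.33, but most are at background. Among probe sets of mean signal over 5 the median SD was 0.54 for ribosomal protein genes and 0.50 for all. Above a mean signal of 5, the median spread of ribosomal protein genes was therefore not below that of the array. Within this range signals were not matched, here or in the other comparisons with probe sets of mean signal over 5. Spread at like signal was therefore not tested.

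**Figure D3:**
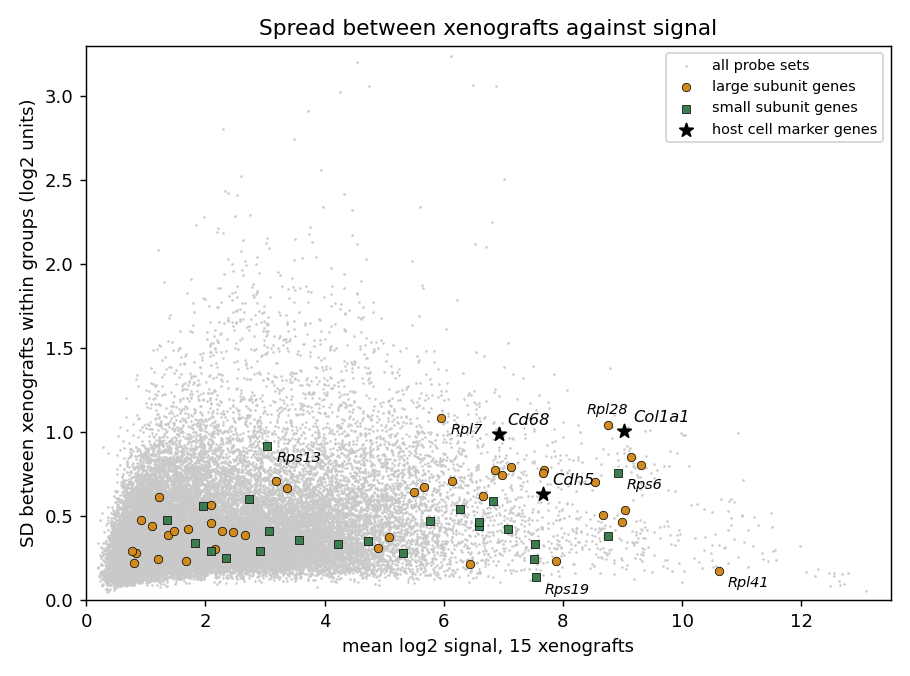
SD between xenografts within groups (y axis, log2 units) against mean log2 signal over 15 xenografts (x axis), for all probe sets (gray), large subunit genes (orange circles), small subunit genes (green squares) and Cdh5, Cd68 and Col1a1 (stars). Ribosomal protein genes lie between SDs of 0.14 (Rps19, mean signal 7.54) and 1.08 (Rpl7, mean signal 5.96).

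Rps19, a small subunit protein mutated in Diamond-Blackfan anemia, was the flattest. Its lowest, median and highest signals were 7.26, 7.53 and 7.70 in cinacalcet tumors and 7.47, 7.52 and 7.81 in vehicle tumors. Rpl41 (SD 0.17), Rpl27 (SD 0.22), Rpl37a (SD 0.22) and Rpl39 (SD 0.23) followed, the last 2 of them by probe sets below background. At the other end, Rpl7 of the large subunit had 4.50, 6.42 and 6.84 in cinacalcet tumors and 3.90, 6.09 and 7.08 in vehicle tumors. Rpl28 (SD 1.05), Rps13 (SD 0.92), Rpl29 (SD 0.85) and Rpl21 (SD 0.81) were next. Rpl28 ran between 7.79 and 10.6 in cinacalcet tumors and between 7.05 and 9.76 in vehicle tumors. Among genes of mean signal over 5, 7 had an SD under 0.35 (Rps19, Rpl41, Rpl27, Rpl10a, Rps3a1, Rps10 and Rps12) and 12 an SD over 0.7 (Rpl7, Rpl28, Rpl29, Rpl21, Rpl13, Rpl35, Rpl7a, Rpl38, Rps6, Rpl3, Rpl8 and Rpl19). These limits were set after the values were seen and serve as a description. They took in 21.2% and 36.4% of the 33 genes, against 28.0% and 28.5% of all probe sets of that signal.

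Spread was then compared between groups with limma fitted to absolute deviations from the group median. After adjustment the call count was 0 of the 65 genes and 0% of all probe sets, with a smallest adjusted p of 0.997 among the 65. This test has little power after adjustment over so many probe sets, so the count does not show equal spread. At an unadjusted p under 0.05 no gene spread more in cinacalcet tumors, against 0.947% of all probe sets and 0.581% of those of mean signal over 5. Of the 65 genes, 3 (4.62%) spread less, against 2.26% and 3.98%. They were Rpl23a, Rps29 and Rps6. Rpl23a, which sits beside the exit tunnel of the nascent chain, had an SD of 0.46 in cinacalcet and 0.77 in vehicle tumors. Rps29, at a signal near background, had 0.37 in cinacalcet and 0.68 in vehicle tumors, and Rps6 had 0.47 in cinacalcet and 0.94 in vehicle tumors. In all, 38 genes had the smaller SD in cinacalcet tumors and 27 the larger one (41.5%, against 46.2% of all probe sets).

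The count of genes that spread less moved when tumors were left out. With cinacalcet tumor 8 left out it was 15 of the 65 (23.1%, against 2.98% of all probe sets and 8.34% of those of mean signal over 5), the median SD in cinacalcet tumors was 0.30, and the smallest adjusted p was 0.10. It was 0 when vehicle tumor 5, 6, 7, 9, 10, 11 or 12 was left out, and 5 when cinacalcet tumor 10 was. Cinacalcet tumor 8 had the lowest signal of all 15 tumors for 8 of the 33 genes of mean signal over 5, vehicle tumor 5 for 13 and vehicle tumor 11 for 7.

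Against host cell genes, most ribosomal protein genes had the smaller SD. SDs within groups were 0.63 for Cdh5, 0.99 for Cd68 and 1.01 for Col1a1. Lower values were found in 48 of the 65 genes for Cdh5 (73.8%, against 86.3% of all probe sets) and in 63 for both Cd68 (96.9%, against 96.8%) and Col1a1 (96.9%, against 97.0%). Only Rpl7 and Rpl28 exceeded Cd68 and Col1a1. Tested in limma as paired differences in absolute deviation, 49 genes spread less than Cd68 at an adjusted p under 0.05, against 89.5% of all probe sets. For Cdh5 the count was 11, against 40.5%, and for Col1a1 it was 0, against 0%. In the other direction, Rpl28 alone spread more than Cdh5 (limma adjusted p = 0.038), against 1.55% of all probe sets. Among genes of mean signal over 5, 60.6% were called against Cd68 and 15.2% against Cdh5, where all probe sets of that signal gave 70.7% and 19.8%. For each host gene, the share of ribosomal protein genes called did not exceed that of all probe sets. The count for Cdh5 was 0 when any single vehicle tumor or cinacalcet tumor 5, 9 or 11 was left out. It was 17 without cinacalcet tumor 4 (26.2%, against 53.1% of all probe sets), and leaving out cinacalcet tumor 8 gave 23 (35.4%, against 55.3%). The count for Col1a1 was 16, 20, 15 and 14 without cinacalcet tumors 4, 7, 8 and 9, between 21.5% and 30.8% of the 65, against between 39.2% and 56.3% of all probe sets.

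The ribosomal protein genes that varied between tumors mostly followed Cd68. Over 15 tumors of both groups, Pearson's r with Cd68 had a median of 0.79 among the 33 genes of mean signal over 5, against 0.58 for all probe sets of that signal, and exceeded 0.8 in 15 of them (45.5%, against 27.7%). Without cinacalcet tumor 8 and vehicle tumors 5 and 11 the median over the 33 genes was 0.56. The median of all probe sets of that signal was not computed without them. The mean of the 12 genes of SD over 0.7 then had r = 0.85. Over all 15 tumors, Rpl7a (r = 0.96) and Rps6 (r = 0.95) were closest to Cd68. Among the 12 genes of SD over 0.7, r lay between 0.70 and 0.96. Whether other probe sets of that signal and spread followed Cd68 as closely was not tested. Among the 7 genes of SD under 0.35 r lay between -0.51 for Rpl41 and 0.72 for Rps12. For Rpl41 this rests on the brightest of 5 probe sets. Those of rank 2 to 4 in signal had SDs between 0.38 and 0.84 and r between 0.71 and 0.86. The dimmest had an SD of 0.34 and r = -0.62. These values are descriptions, since all points share the same 15 arrays and their normalization.

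**Figure D4:**
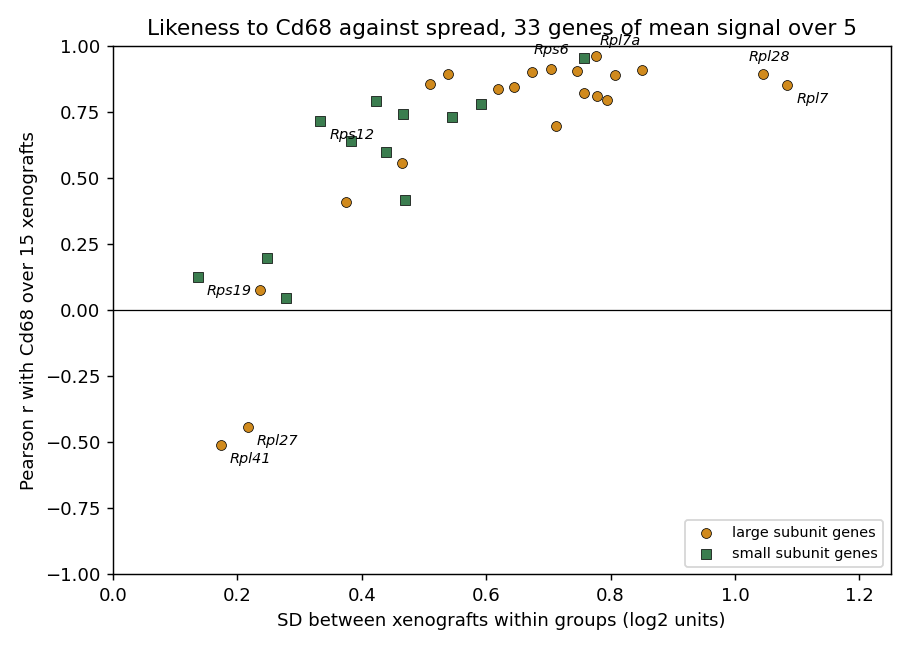
Pearson's r with Cd68 over 15 xenografts (y axis) against SD within groups (x axis, log2 units) for the 33 ribosomal protein genes of mean signal over 5, large subunit in orange circles and small subunit in green squares. Genes of SD over 0.7 lie between 0.70 and 0.96, and Rpl27 and Rpl41, by their brightest probe sets, are the only ones below 0.

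Averaged over the 12 genes of large spread, signals were between 6.68 and 8.64 in cinacalcet tumors and between 6.30 and 8.51 in vehicle tumors. Averaged over the 7 genes of small spread they were between 7.28 and 7.68 in cinacalcet tumors and between 7.46 and 7.71 in vehicle tumors. The first mean followed Cd68 with r = 0.92 (Spearman's rho = 0.83), and with r = 0.85 when vehicle tumors 5 and 11, the 2 farthest from the median, were left out. Within groups r was 0.81 in cinacalcet and 0.97 in vehicle tumors. It followed Col1a1 with r = 0.67 (rho = 0.78) and Cdh5 with r = 0.59 (rho = 0.47). Within cinacalcet tumors r was 0.25 and 0.11, where vehicle tumors gave 0.85 and 0.93. For the mean of 24 markers of endothelial cells, macrophages, fibroblasts and mural cells r was 0.84 (rho = 0.78). That mean contains Cd68, Col1a1 and Cdh5. The mean of the 7 flat genes had r = 0.15 with Cd68 (0.019 without cinacalcet tumor 8 and 0.23 without vehicle tumor 5), -0.25 within cinacalcet tumors and 0.75 within vehicle tumors. Other measures moved with the variable genes as well. Their mean had r = -0.94 with the array median and r = -0.94 with the mean of olfactory receptor probe sets. The part of array-wide signal in the likeness to Cd68 was not tested.

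**Figure D5:**
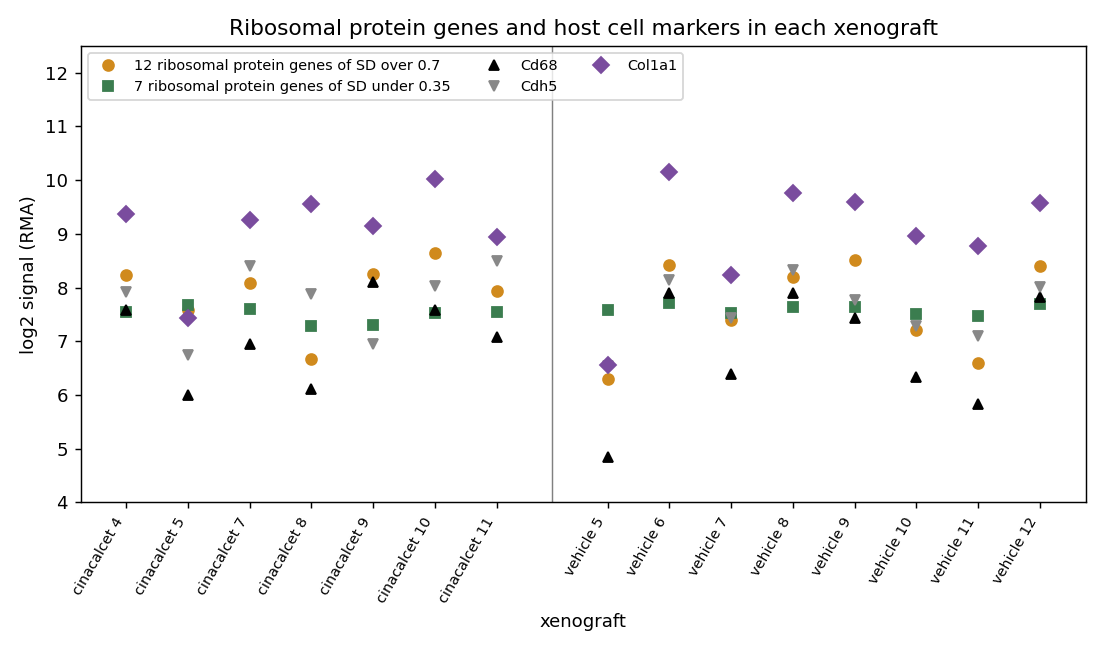
Log2 signal (y axis) in each xenograft (x axis, cinacalcet tumors to the left of vehicle tumors) of the mean of 12 ribosomal protein genes of SD over 0.7 (orange), the mean of 7 genes of SD under 0.35 (green), Cd68, Cdh5 and Col1a1. The orange points fall to 6.68 in cinacalcet tumor 8 and to 6.30 in vehicle tumor 5. The green points, of genes chosen for small SD in these tumors, lie between 7.28 and 7.71.

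Cinacalcet tumor 8 differed from vehicle tumor 5 in its host genes. In cinacalcet tumor 8 the 12 variable genes averaged 6.68, with 6.11 for Cd68, 7.88 for Cdh5 and 9.56 for Col1a1. In vehicle tumor 5 they averaged 6.30, with 4.84 for Cd68, 6.55 for Cdh5 and 6.56 for Col1a1, the lowest values of all 15 tumors for each host gene. Over 24 markers of endothelial cells, macrophages, fibroblasts and mural cells, all above background, the mean was between 4.85 and 6.30 in cinacalcet tumors and between 4.23 and 6.38 in vehicle tumors. Of 4 measured lineage genes of the tumor cells, Hand2 averaged 4.07 in cinacalcet and 4.06 in vehicle tumors and Gata3 3.11 in cinacalcet and 3.20 in vehicle tumors, both above background. Dbh averaged 1.55 in cinacalcet and 1.39 in vehicle tumors, and Th 2.25 ± 1.93 in cinacalcet and 1.45 ± 0.31 in vehicle tumors (SD), neither of them above background over all tumors. The part of the tumor cells in any ribosomal protein signal was not tested.

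Start sites of flat and variable genes were compared by their sequence, to show whether the TOP motif set them apart. In RefSeq annotation of GRCm38.p6 52 of the 65 genes had a promoter sequence. A C followed by 4 or more pyrimidines (C or T, sense strand) began exactly at an annotated start in 11 of the 52 (21.2%, against 3.01% of 27025 genes). It began within 10 bases of one in 31 (59.6%, against 34.4%). Of the genes of mean signal over 5 with a sequence, such a run was found in 6 of 7 with an SD over 0.7 and in 4 of 7 with an SD under 0.35. In the windows below, which run 10 bases upstream to 15 bases downstream on the gene's strand, capitals mark the run. All 14 genes are shown, the 7 variable ones first, and where a gene had several annotated starts (Rpl19, Rps19 and Rpl10a) the window is 1 with a run.
Rpl28, chr7:4792955-4792979, plus strand: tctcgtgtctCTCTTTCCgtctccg
Rpl13, chr8:123102340-123102364, plus strand: tttcgcctgattttgattggcgttt
Rpl35, chr2:39005117-39005141, minus strand: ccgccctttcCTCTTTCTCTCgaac
Rpl7a, chr2:26910797-26910821, plus strand: ctcttctttCTTTCTCCagcagccg
Rpl38, chr11:114668570-114668594, plus strand: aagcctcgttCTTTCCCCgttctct
Rps6, chr4:86857353-86857377, minus strand: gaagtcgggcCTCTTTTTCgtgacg
Rpl19, chr11:98026700-98026724, plus strand: aaacgCCCTCactgcgcatgtgcgc
Rps19, chr7:24884903-24884927, plus strand: agcggggtgtggagggCTCTCCCac
Rpl41, chr10:128549154-128549178, minus strand: gggccggctcggaagtgacgacacc
Rpl27, chr11:101442235-101442259, plus strand: ctgttcctgtctgctgctcgtgctg
Rpl10a, chr17:28328461-28328485, plus strand: gccCCCCCagcggccgcaaactgca
Rps3a1, chr3:86142654-86142678, minus strand: gccggaagggcgaaagagcaagggt
Rps10, chr17:27635230-27635254, minus strand: gcgcacgcccCTTCCTTTCCagcct
Rps12, chr10:23787195-23787219, minus strand: tcatgcggccaccgccggCCTTTTC

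Among the variable genes Rpl13 had no run, and among the flat genes Rpl41, Rpl27 and Rps3a1 had none. With so few genes and starts that annotation may place some bases off, this is a description of these windows only. Over the promoter sequences of 250 bases before to 50 after the start, searched on both strands, CCGGAAG, the core bound by GABP, was present in 23 of the 52 genes (44.2%, against 9.93% of all genes). AAGATGGC, the core bound by YY1, was present in 3 (5.77%, against 3.19%), and TATAAA in 6 (11.5%, against 15.7%).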

How the data were processed

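RNA of 16 xenografts was hybridized to Affymetrix Mouse Gene 2.1 ST arrays. The values deposited by the authors are RMA-normalized log2 signals, 40543 per array, and limma 3.24 and R 3.2 are listed in the submitters' processing notes. A single gene is named by 23448 of the probe sets, several genes by 1619, and 15476 have no name here. Pseudogenes were excluded by RefSeq biotype, which removed Rpl6l and Rps4l. This was decided after their mean signals were seen and before any fit. Groups came from the sample labels. Levels were compared with limma 3.58.1 (R 4.3.3) on all probe sets with Benjamini-Hochberg adjustment, without the filter of the methods on signal and variability, which would have removed 30 of the 65 genes. Spread was compared with limma on absolute deviations from the group median, and against Cdh5, Cd68 and Col1a1 on paired deviations. Each fit was tested on simulated data, with noise independent between probe sets, unlike in the tumors. The fit of levels recovered planted changes, all of them larger than any of the 65 genes showed. Power for smaller changes was not tested. The spread fits seldom made calls on simulated data after adjustment. A log scale was therefore tried, after the data were seen. Named genes were stalk proteins, Rpsa, Rps6, Rps19, Rpl5, Rpl11, paralogs, and those of extreme signal, spread or p. Members and gene lists were chosen with earlier results of these data known. P-values reflect how much tumors vary, and precision is limited by how many arrays there are. No sequencing depth applies to arrays. Tumors that share a number deviated together in 2 of 6 numbers only. Number 5 had r = 0.31 and number 9 r = 0.32, and in both the tumor of the same number was the best match. The other numbers lay between -0.20 and -0.0030, so numbers were not used as pairs.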

Additional observations from a re-analysis of the deposited data

Results flagged for a closer look

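In 23 of 144 sets examined (65 genes, 3 host genes and 4 means over genes, each in 2 groups) 1 tumor stood apart from its group by Dixon's ratio. Chance gives about 5% for independent sets, and these sets share tumors. Cinacalcet tumor 8 was the tumor in 16 of them. It was the lowest of its group for Rpl15 (7.80, next tumor 8.88), Rpl21 (8.07, next 9.22), Rpl23a (4.67, next 5.56), Rpl35 (6.38, next 7.93), Rpl38 (6.49, next 7.91), Rpl6 (0.83, next 2.03), Rpl7 (4.50, next 5.99) and Rpl9 (1.69, next 3.01). It was also lowest for Rplp1 (7.69, next 8.60), Rps12 (6.95, next 7.47), Rps24 (5.22, next 6.05), Rps26 (5.67, next 6.74), Rps27l (2.75, next 3.57) and Rps4x (7.76, next 8.66), and for the mean over the 33 genes of mean signal over 5 (6.61, next 7.34). For Rps18 it was the highest (4.86, next 4.19).

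Cinacalcet tumor 10 was the highest for Rps3 (7.81, next 6.70) and Rps9 (7.66, next 6.84), and cinacalcet tumor 9 for the dim Rpl32l (1.52, next 0.78). Cinacalcet tumor 5 was the lowest for Col1a1 (7.44, next 8.94). Among vehicle tumors, tumor 5 was the highest for Rpl10l (2.23, next 1.42), tumor 7 the highest for Rplp2 (2.60, next 1.96) and tumor 11 the lowest for Rps7 (2.37, next 2.89).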

How the results depend on the processing

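No ribosomal protein gene passed an adjusted p of 0.05, for level or for spread between groups, under any alternative run. For spread between groups on the log scale, 78 of 40543 probe sets passed. The smallest adjusted p among the 65 genes was then 0.32 (limma). For the other alternatives the adjusted calls among all probe sets are not given here. The 10 named genes of smallest p kept their direction throughout. The median log2 fold change of 0.034 lay between -0.053 and 0.10 with 1 tumor left out and between -0.060 and 0.13 otherwise. With Rpl6l and Rps4l included, which was chosen after seeing the data, it was 0.025 and 2 genes instead of 1 were lower at an unadjusted p under 0.05. Without 1 tumor, between 0 and 2 genes were higher and between 1 and 2 lower at an unadjusted p under 0.05. With the tumor number as a replicate block over the 6 shared numbers the count of adjusted calls was also 0. None of the host genes passed either. Cdh5 turned to -0.017, Cd68 to -0.095 and Col1a1 to -0.22 with the host marker mean as a covariate, which contains these genes, and Col1a1 to -0.022 with array weights. With 1 tumor left out, Cdh5 lay between 0.048 (without vehicle tumor 5) and 0.37, Cd68 lay between -0.030 and 0.43 and Col1a1 between -0.19 and 0.43. Spread against Cdh5 was called smaller for 11 genes, and for 17 with cinacalcet tumor 6, 21 with array medians subtracted, 24 with deviations from the group mean and 27 on the log scale. Against Col1a1 the counts were 0, 26, 18, 24 and 13 in the same order. All probe sets were called at 57.4%, 63.7%, 61.6% and 63.7% against Cdh5 in these 4 alternatives and at 67.0%, 56.2%, 63.9% and 45.2% against Col1a1, each above the share of the 65 genes. With 1 tumor left out they lay between 0 and 23 for Cdh5 and between 0 and 20 for Col1a1. Against Cd68 the count of 49 lay between 38 and 53. On the log scale 83.5% of all probe sets and 63.1% of the 65 genes were called against Cd68. In the main run the smallest adjusted p (limma) among the 65 genes was 0.056 against Col1a1, a value shared by several genes. Against Cdh5 it was 0.032. Both lie close to the threshold of 0.05. The cause of these shifts was not tested. Signals below background limit 14 of the 65 genes.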

Other observations

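Cinacalcet tumor 6, the outlier on quality control, entered no main comparison. It combined high Cdh5 and Col1a1 with low signals of the flat ribosomal protein genes. It had 8.99 for Cdh5, 7.43 for Cd68 and 10.7 for Col1a1, where the 7 other cinacalcet tumors reached at most 8.49, 8.11 and 10.02. The 7 flat ribosomal protein genes averaged 6.70 in it, below all 15 other tumors (7.28 to 7.71). These genes were chosen for small spread in those 15 tumors, so the narrow range follows from the choice. Tumor 6 had no part in it, and its low values are a description only. Rps19 had 6.35 and Rpl41 9.70. Their lowest values among those 15 tumors were 7.26 and 10.3.

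Fau, which encodes a ubiquitin-like protein fused to a small subunit protein and lies outside the symbol rule, averaged 6.88 ± 0.68 in cinacalcet and 6.60 ± 1.03 in vehicle tumors (SD), with r = 0.81 with the mean of 24 host markers over 15 tumors. Of the 21 canonical genes that were not followed, 12 had a probe set shared with other genes. The probe sets of 1 gene could differ in their likeness to Cd68. For Rpl41 r was -0.51, 0.71, 0.82, 0.86 and -0.62 in order of falling signal. For Rpl21 and Rpl7a the 2 brightest probe sets correlated at r = 0.996 and 0.994.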
